A study of Mus musculus with 6 samples.

Results

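The lens is covered on its anterior face by a single layer of epithelial cells, and the genes described here encode proteins at the surface of those cells or released by them. They are 10 genes chosen by symbol in the platform annotation, with the older symbol Gpr177 counted as Wls. The array holds 30 probes for them among 45281 in all, and 18 of these probes, for 9 of the 10 genes, were detected on enough arrays to be tested. Lenses were taken from mice at postnatal day 30. Labelled RNA copies (cRNA) of their total RNA were hybridised to 6 Illumina BeadArrays, on which the brightness of a probe reports transcript abundance. The Tdrd7 null group has 3 arrays, called null arrays 4 to 6, and the Tdrd7 heterozygous group has 3, called heterozygous arrays 1 to 3, numbered as the raw columns run. Both groups share the C57BL/6J and C3A.Blia mixed background, and the control group itself carries Tdrd7 heterozygosity, so no wild-type lens is part of the comparison. The labels state neither the nature of the null allele nor whether lenses were pooled or came from separate animals, so the spread that enters the p-values may be technical.

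Lens epithelial cells divide, and those at the lens equator stop dividing and elongate into fibre cells. The epithelial layer is held together by E-cadherin junctions, while growth factors from the surrounding eye fluids, among them platelet-derived growth factor (PDGF) and insulin-like growth factors (IGF), reach it through surface receptors. Wnt signalling is known to act in this layer, and the layer also makes secreted inhibitors of Wnt, the frizzled-related and Dickkopf-related proteins. Tdrd7 is a protein of RNA granules with Tudor domains, and its loss is known to cause cataract.

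RefSeq promoter sequences were at hand for 6 of the 10 genes. Those of Pdpn, Pdgfra, Igfbp7 and Cp are shown because each had a probe over 1 log2 unit lower on heterozygous array 2 than on arrays 1 and 3, as described further on. Wls, less low on that array, and Frzb, which was not tested, are the other two. Each runs 5′ to 3′ on the strand of its gene, from 250 bases before to 50 bases after the annotated transcription start, on build GRCm38.p6. Capitals mark the GC box GGGCGG on either strand. The windows are chr4:143299515-143299814 on the minus strand for Pdpn, chr5:75152001-75152300 on the plus strand for Pdgfra, chr5:77407996-77408295 on the minus strand for Igfbp7 and chr3:19956804-19957103 on the plus strand for Cp.
Pdpn: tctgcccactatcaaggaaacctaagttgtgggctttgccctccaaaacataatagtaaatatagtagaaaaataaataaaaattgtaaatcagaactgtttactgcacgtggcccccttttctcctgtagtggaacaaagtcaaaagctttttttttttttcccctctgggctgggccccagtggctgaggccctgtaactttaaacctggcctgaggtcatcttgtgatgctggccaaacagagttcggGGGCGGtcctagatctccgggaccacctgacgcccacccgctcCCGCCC
Pdgfra: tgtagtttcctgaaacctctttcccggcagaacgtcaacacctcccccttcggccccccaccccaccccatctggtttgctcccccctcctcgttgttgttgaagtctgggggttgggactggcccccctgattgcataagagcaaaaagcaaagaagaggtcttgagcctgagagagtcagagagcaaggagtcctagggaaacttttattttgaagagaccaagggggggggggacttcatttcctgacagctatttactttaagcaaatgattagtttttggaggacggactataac
Igfbp7: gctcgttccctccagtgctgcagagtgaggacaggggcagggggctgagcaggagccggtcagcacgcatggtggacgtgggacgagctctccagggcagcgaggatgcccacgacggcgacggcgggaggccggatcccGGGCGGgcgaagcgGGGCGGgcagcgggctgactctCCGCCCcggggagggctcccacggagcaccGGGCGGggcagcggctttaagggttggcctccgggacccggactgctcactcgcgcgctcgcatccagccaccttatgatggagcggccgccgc
Cp: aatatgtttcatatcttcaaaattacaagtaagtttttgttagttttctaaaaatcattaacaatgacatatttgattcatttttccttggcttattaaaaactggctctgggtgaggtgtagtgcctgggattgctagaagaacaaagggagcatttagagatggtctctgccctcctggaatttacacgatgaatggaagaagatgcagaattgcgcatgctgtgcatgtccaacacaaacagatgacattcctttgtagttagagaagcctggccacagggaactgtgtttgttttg
The GC box matched 2 times in the Pdpn window and 4 times in that of Igfbp7, and it did not match in those of Pdgfra and Cp. Of all 32851 promoter windows of this length, 35.7% hold at least 1 match. The GC content was 48.7% for Pdpn, 51.0% for Pdgfra, 73.3% for Igfbp7 and 38.3% for Cp, against a median of 52.7% over all windows. Neither CCAAT, held by 37.4% of all windows, nor TATAAA, held by 13.6%, matched on either strand in these 4 windows. The Wls window, not shown, held 1 GC box at a GC content of 58%. A match here describes letters and not a binding site.

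The samples were first checked as a whole. Tdrd7 itself fell in the null lenses, with a difference of −3.88 ± 0.26 (SE) on the log2 scale (limma, Benjamini-Hochberg adjusted p = 0.001385), lower on 3 of 3 null arrays. Between 12655 and 16204 probes were detected per array, fewest on heterozygous array 2 and most on null array 5. Over the tested probes the best correlation with any other array was 0.946 for heterozygous array 2 and 0.962 for null array 5, while it was at least 0.981 for each of the other 4 arrays. Results for the tested members are therefore given with all 6 arrays and again without heterozygous array 2. Those for the marker lists and pathway partners are given mostly with all 6 arrays.

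No gene of the set passed the test between null and heterozygous lenses. With all 6 arrays, 0 of 18 member probes reached an adjusted p of 0.05 in limma, where 0.174% of all 14902 probes tested did, and 1 of 18 had an unadjusted p under 0.05, where 8.70% of all did. Without heterozygous array 2 the count was again 0 of 18, where 0.121% of all probes passed, with 3 of 18 at an unadjusted p under 0.05, where 9.42% of all were. By the representative probe of each gene, the one with the highest mean, 7 genes were higher and 2 lower in null lenses with all 6 arrays, with a median difference of 0.29 against 0.02 over 8944 genes. Over all 18 member probes 6 were lower in null lenses, where 48.2% of all probes tested were. Without heterozygous array 2 these turned to 2 higher and 7 lower, with a median of −0.19 against −0.01, and 12 of the 18 probes were lower, where 50.6% of all were. The direction of the set thus depended on that 1 array. In a fit with a replicate block, run on the authors' series matrix values, 35 of all probes passed and 9 did without it, while 0 of the 18 member probes passed in either case. The groups did not overlap for 2 of 18 member probes, where 15.3% of all did not, and without heterozygous array 2 for 5 of 18, where 27.7% of all did not.

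**Figure D1:**
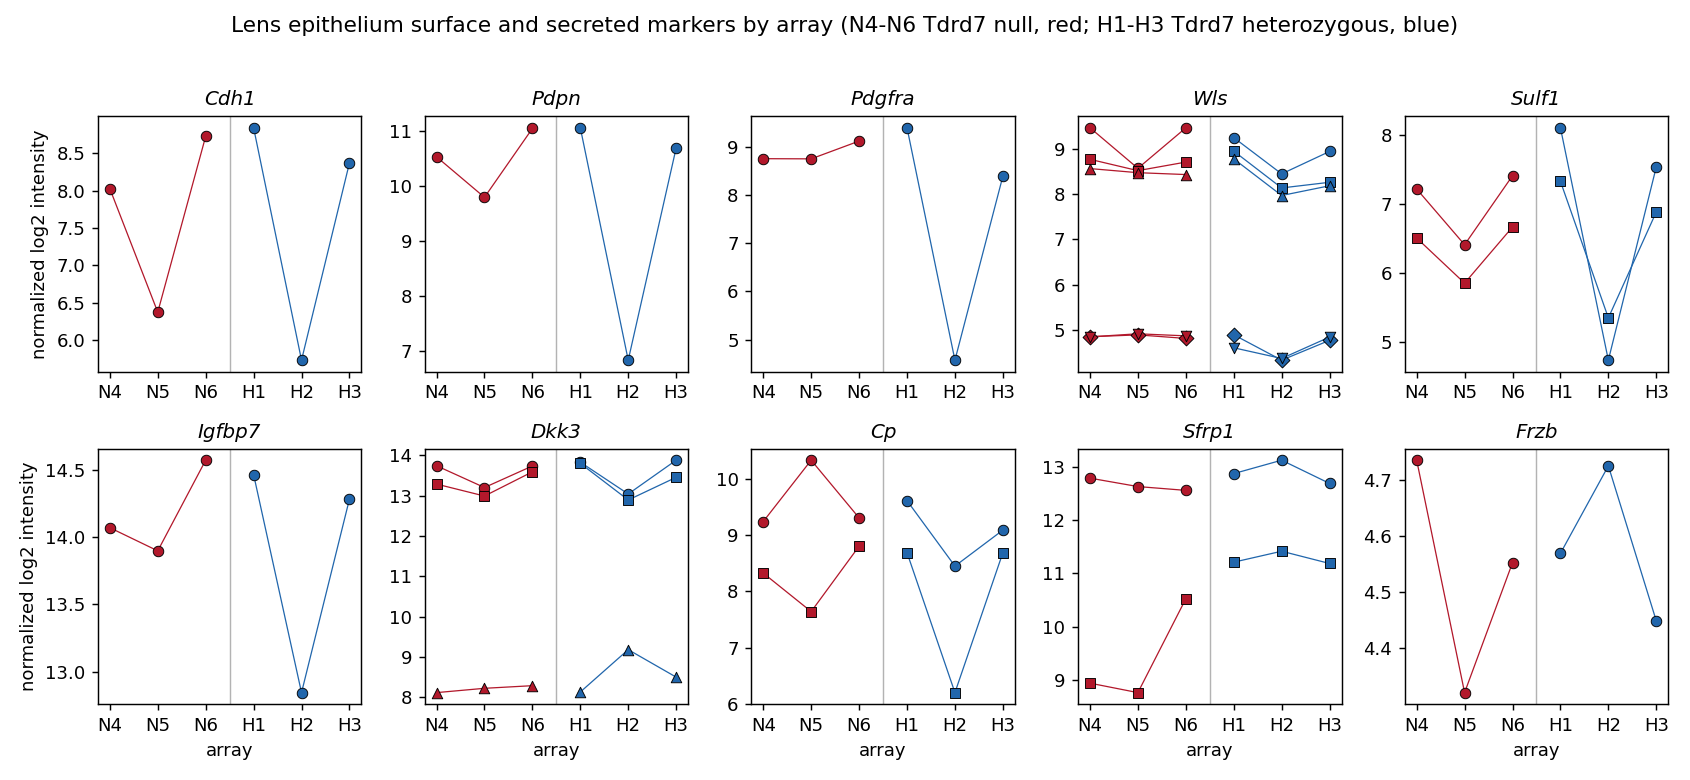
Normalized log2 intensity (vertical axis) of each member gene on null arrays 4 to 6 (N4 to N6, red) and heterozygous arrays 1 to 3 (H1 to H3, blue). Each marker shape is 1 tested probe of the gene and lines join the arrays of a group, and for Frzb the 1 probe below the filter is drawn. Heterozygous array 2 sits far below the other 5 arrays for Pdpn and Pdgfra, and for Cdh1 and Sulf1 it is the lowest with null array 5 next above it, while for Sfrp1 it is not low on this scale, and probe 2 of Sfrp1 lies lower on all 3 null arrays.

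Most of the set had low values on heterozygous array 2. The members were chosen with earlier results of these data known, so the shares below are a description and not a test. On that array 15 of the 18 tested probes, 5 of them for Wls, had their lowest value of the 6 arrays, where 29.8% of all tested probes did. For 7 of 18 the value lay over 1 log2 unit below the mean of heterozygous arrays 1 and 3, where 6.46% of all did. The median gap over the 9 genes was −1.53, against −0.06 over all 8944 genes, and it ran from −4.31 for Pdgfra to 0.34 for Sfrp1. In whole lens RNA, fewer cells of a type and less RNA per cell cannot be told apart, and these gaps are values of 1 array with no test.

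Cdh1 encodes E-cadherin, the adhesion protein of epithelial cell junctions. Its detected probe was at 8.03, 6.37 and 8.73 log2 units on null arrays 4, 5 and 6 and at 8.84, 5.73 and 8.37 on heterozygous arrays 1, 2 and 3. The groups overlapped, with 1 low array in each, null array 5 and heterozygous array 2. The null minus heterozygous difference of 0.06 ± 0.81 (SE, n = 3 each) did not pass (limma adjusted p = 0.990). The Cdh1 difference was −0.90 ± 0.56, with a 95% interval from −2.17 to 0.38, once heterozygous array 2 was left out (adjusted p = 0.671). A second Cdh1 probe, designed on a cDNA clone, was detected on 0 of 6 arrays.

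Pdpn encodes podoplanin, a mucin-like membrane glycoprotein linked to the actin cytoskeleton through ezrin-family proteins. As deposited, its intensity was 1772, 1167 and 2114 on null arrays 4, 5 and 6 and 2653, 106.8 and 1353 on heterozygous arrays 1, 2 and 3. On the normalized log2 scale these were 10.53, 9.79 and 11.05 in null lenses against 11.06, 6.83 and 10.69 in heterozygous lenses. Heterozygous array 2 thus had a gap of −4.05 log2 units to its 2 companions, or a 16.5-fold lower level, although Pdpn was still detected there. The difference of 0.93 ± 0.94 (limma adjusted p = 0.840) became −0.42 ± 0.34 without that array, with an interval from −1.19 to 0.36 (adjusted p = 0.740). Pdpn lies at chr4:143267409-143299564.

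Pdgfra encodes the alpha receptor for PDGF, which is known to drive growth of the lens epithelium. The main Pdgfra probe was at 8.75, 8.75 and 9.11 on null arrays 4, 5 and 6 and at 9.39, 4.57 and 8.38 on heterozygous arrays 1, 2 and 3. The 3 null arrays were close together, and heterozygous array 2 was not above background, so the size of the gap there is uncertain. The Pdgfra difference was 1.42 ± 0.98 and missed the threshold (limma adjusted p = 0.751). Leaving out heterozygous array 2 gave −0.02, with an interval from −0.71 to 0.67 (adjusted p = 0.992). Among the representative probes, Pdgfra had the largest difference with 6 arrays and the one nearest to 0 without that array. The other Pdgfra probe was detected on 2 of 6 arrays, 1 in each group, and the one in the heterozygous group was array 2, with a deposited intensity of 69.1.

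Wls, once called Gpr177, encodes the carrier that takes Wnt proteins to the cell surface. All 5 of its probes were tested, and all 5 were lowest on heterozygous array 2. The brightest was at 9.46, 8.57 and 9.46 on null arrays 4, 5 and 6 and at 9.24, 8.44 and 8.94 on heterozygous arrays 1, 2 and 3. On the normalized scale, the gap between heterozygous array 2 and its companions was −0.65 for this probe and between −0.35 and −0.51 for the other 4. As deposited, the intensity of the brightest probe was 230.6 on heterozygous array 2 against 806.9 and 434.0 on arrays 1 and 3. Differences of the 5 Wls probes ran from 0.18 to 0.29 with all 6 arrays and from 0.01 to 0.15 without heterozygous array 2, with adjusted p from 0.781 to 0.891 and from 0.846 to 0.995 in limma. For the brightest probe the interval ran from −0.61 to 0.76 without that array. Probes 4 and 5 were dim, each detected on 1 of 3 heterozygous arrays, and on probe 5 the groups did not overlap (4.850 to 4.918 in null and 4.374 to 4.846 in heterozygous lenses).

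Sulf1 encodes an extracellular enzyme that removes sulfate groups from heparan sulfate chains and so alters how growth factors bind them. Its brighter probe was at 7.22, 6.41 and 7.41 on null arrays 4, 5 and 6 and at 8.11, 4.73 and 7.54 on heterozygous arrays 1, 2 and 3. A second probe gave 6.51, 5.85 and 6.67 in null lenses against 7.33, 5.35 and 6.88 in heterozygous lenses. On both probes heterozygous array 2 was the lowest and null array 5 next, and the other 2 heterozygous arrays lay above all 3 null arrays. The differences were 0.22 ± 0.74 and −0.18 ± 0.47 with all 6 arrays (limma adjusted p = 0.963 and 0.951). Both Sulf1 probes were lower in null lenses without heterozygous array 2, with differences of −0.81 ± 0.32 and −0.77 ± 0.29, with intervals from −1.54 to −0.08 and from −1.41 to −0.12, and neither passed (adjusted p = 0.487 and 0.453). The brighter probe was not above background on heterozygous array 2. The 3 further Sulf1 probes, all designed on cDNA clones, were detected on 0 of 6 arrays.

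Igfbp7 encodes a secreted protein of the IGF binding protein family. Its 1 detected probe was very bright, with a deposited intensity of 19025, 15719 and 22976 on null arrays 4, 5 and 6 and 26468, 6139 and 17380 on heterozygous arrays 1, 2 and 3. In log2 units these were 14.07, 13.90 and 14.57 in null lenses against 14.47, 12.84 and 14.28 in heterozygous lenses. Heterozygous array 2 was 2.89-fold below its companions and null array 5 was the lowest of the null arrays. The difference was 0.32 ± 0.41 (limma adjusted p = 0.880), and −0.19 ± 0.25 without heterozygous array 2, with an interval from −0.76 to 0.37 (adjusted p = 0.844). Igfbp7 had 4 further probes annotated to the same transcript record, and each was detected on 0 of 6 arrays.

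Dkk3 encodes a secreted glycoprotein of the Dickkopf-related family. Its brightest probe was at 13.74, 13.20 and 13.74 on null arrays 4, 5 and 6 and at 13.83, 13.04 and 13.88 on heterozygous arrays 1, 2 and 3. The second probe showed the same 2 low arrays, at 12.99 on null array 5 and 12.89 on heterozygous array 2. The differences of −0.02 ± 0.29 and −0.09 ± 0.28 did not pass (limma adjusted p = 0.989 and 0.958). Without heterozygous array 2 they were −0.30 ± 0.24 and −0.34 ± 0.25, with intervals from −0.83 to 0.24 and from −0.89 to 0.22. The dimmest of the 3 Dkk3 probes did not follow, being highest on heterozygous array 2 at 9.18, against 8.13 and 8.50 on heterozygous arrays 1 and 3 and 8.12 to 8.29 on the null arrays. As deposited its intensity there was 361.2, within the 329.2 to 446.0 of the other 5 arrays, so it was at the top only after normalization. The difference of this probe was −0.40 ± 0.28, and −0.11 ± 0.21 without heterozygous array 2 (limma adjusted p = 0.758 and 0.905).

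Cp encodes ceruloplasmin, a copper-containing ferroxidase of the circulation and of cell surfaces that supports iron export. The 2 Cp probes that were detected differed in pattern. The brighter was at 9.24, 10.33 and 9.30 on null arrays 4, 5 and 6 and at 9.61, 8.45 and 9.09 on heterozygous arrays 1, 2 and 3, highest on null array 5. The other was at 8.32, 7.64 and 8.80 in null lenses against 8.69, 6.20 and 8.69 in heterozygous lenses, lowest of the null arrays on null array 5. Differences of 0.58 ± 0.37 and 0.40 ± 0.62 did not pass (limma adjusted p = 0.731 and 0.903), and without heterozygous array 2 they were 0.28 ± 0.35 and −0.43 ± 0.32, opposite in sign (adjusted p = 0.839 and 0.719). The mean of the leucocyte markers was also highest on null array 5, at 3.71 above the heterozygous mean, and their part in the brighter probe was not tested. The other 2 Cp probes were detected on 0 of 6 arrays.

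Sfrp1 encodes a secreted frizzled-related protein that binds Wnt ligands and limits their signalling. It was the 1 member whose tested probes were all at their highest on heterozygous array 2 after normalization. As deposited, neither was highest there, with the brighter probe at 7832 on heterozygous array 2 against 9107 on array 1, and the second probe at its lowest of the 3 heterozygous arrays. The brighter probe (ILMN_1231689) was at 12.79, 12.63 and 12.56 on null arrays 4, 5 and 6 and at 12.87, 13.12 and 12.69 on heterozygous arrays 1, 2 and 3, with overlapping groups. Its difference was −0.24 ± 0.21, with an interval from −0.71 to 0.24 (limma adjusted p = 0.814). That difference was −0.12 ± 0.21 without heterozygous array 2 (adjusted p = 0.885).

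The second Sfrp1 probe (ILMN_2604282), annotated to the same transcript record NM_013834, set the groups apart. As deposited its intensity was 594.8, 616.3 and 1484 on null arrays 4, 5 and 6 and 2946, 1856 and 1963 on heterozygous arrays 1, 2 and 3. In log2 units these were 8.94, 8.77 and 10.52 in null lenses against 11.21, 11.42 and 11.19 in heterozygous lenses. All 3 null values lay below all 3 heterozygous ones, as for 7.86% of all probes tested, and null array 6 lay between the other 2 null arrays and the heterozygous ones. The difference of −1.86 ± 0.42, with an interval from −2.80 to −0.93, was the largest of the set, and it did not pass over all probes (limma adjusted p = 0.154, unadjusted p = 0.00142). Without heterozygous array 2 it was −1.79 ± 0.46 (adjusted p = 0.240). It kept its sign in all 16 alternatives and passed in 2 of them, with array weights (−1.68, adjusted p = 0.0385) and without null array 6 (−2.42, adjusted p = 0.0493), over a range of adjusted p from 0.0385 to 0.590. The filter settings leave a difference as it is, so its sign could not turn there. The replicate block likewise leaves the difference of the series matrix fit as it is. The 2 Sfrp1 probes thus disagreed in size, and where on the transcript each lies was not analysed here.

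Frzb encodes a further secreted frizzled-related protein. Its 1 probe was above background on null array 4 alone and was not tested, at 4.32 to 4.74 in null lenses and 4.45 to 4.73 in heterozygous lenses. On the other 5 arrays Frzb was not well above background. Whole lens RNA does not separate epithelium from fibre cells, so the marker label of no member could be checked here. In all, 12 of the 30 member probes were left untested, 10 of them detected on 0 arrays.

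**Figure D2:**
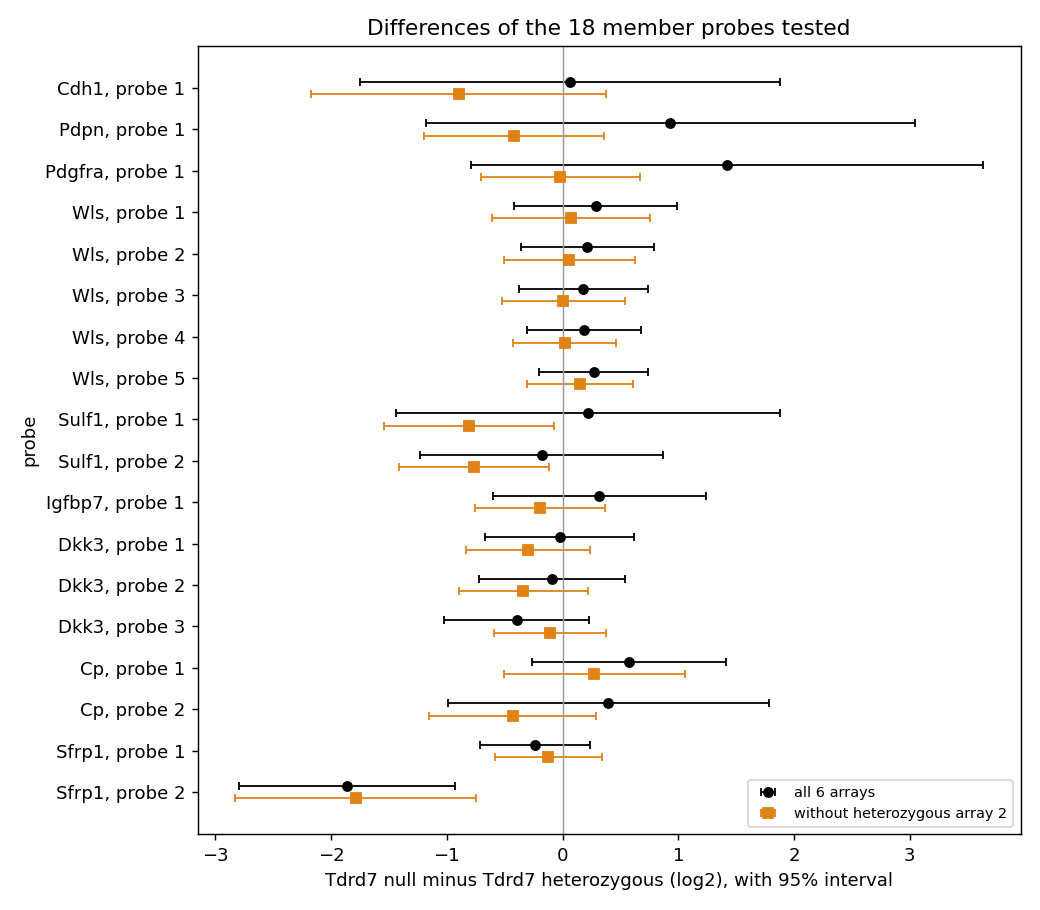
Null minus heterozygous difference on the log2 scale (horizontal axis) for each of the 18 member probes tested, with its 95% interval from limma. Black circles use all 6 arrays and orange squares leave out heterozygous array 2. Without that array the points of Cdh1, Pdpn and Sulf1 probe 1 move from above 0 to below it and their intervals narrow, while Sfrp1 probe 2 stays at −1.86 and −1.79.

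The members moved together to different degrees, as a description over 6 arrays that share their normalization and, for the most part, 1 low array. The correlation of each gene with the mean of the other 8 was 0.99 for Pdpn, 0.98 for Igfbp7 and Sulf1, 0.94 for Pdgfra, 0.87 for Cdh1 and Dkk3 and 0.78 for Wls. It was 0.44 for Cp and −0.72 for Sfrp1. Over the 5 arrays left without heterozygous array 2, Pdpn (0.96), Sulf1 (0.91), Cdh1 (0.90), Igfbp7 (0.88) and Dkk3 (0.79) still ran alike. There the values were 0.69 for Wls, 0.56 for Pdgfra, 0.38 for Sfrp1 and −0.69 for Cp. The genes that ran alike shared null array 5 as their lowest null array, where the median over the 9 genes was −0.54 relative to the mean of null arrays 4 and 6, against −0.05 over all genes.

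Outside the set, the genes with the pattern most like its mean over the 6 arrays were Hif1a (r = 0.994), F2r (0.991), Serping1 (0.990), Bcl6 (0.989) and Slc2a1 (0.988), out of 484 genes detected on all arrays and at least as variable. Hif1a encodes the oxygen-regulated transcription factor subunit, F2r the thrombin receptor, Serping1 the C1 inhibitor, Bcl6 a transcriptional repressor and Slc2a1 the glucose transporter GLUT1. F2r, as an example, was at 9.72, 8.83 and 9.99 on null arrays 4, 5 and 6 and at 10.47, 6.64 and 10.12 on heterozygous arrays 1, 2 and 3. Its difference was 0.44 ± 0.85 (limma adjusted p = 0.929), and without heterozygous array 2 it was −0.78 ± 0.34 (adjusted p = 0.518). Over the remaining 5 arrays, the likeness of these 5 genes was 0.992 for Serping1 and between 0.933 and 0.975 for the other 4.

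Other markers of the lens epithelium divided in the same way on heterozygous array 2. The gap junction protein gene Gja1 was at 10.72, 7.87 and 11.09 on null arrays 4, 5 and 6 and at 11.67, 6.70 and 11.33 on heterozygous arrays 1, 2 and 3, which is the Cdh1 pattern on a larger scale. The water channel gene Aqp1 had a gap of −4.07 there and Slc2a1 one of −2.69. The transcription factor gene Tfap2a was not low there on the normalized scale, with a gap of 0.38, and Meis1 had a gap of −0.30. Sfrp1 and the dimmest Dkk3 probe were highest on that array only after normalization. Whether Tfap2a was low there as deposited was not examined. Foxe3 and Pax6, which specify the epithelium, were dim throughout, at 4.80 to 5.99 and 4.64 to 4.72 in null lenses and 4.30 to 4.94 and 4.26 to 5.09 in heterozygous lenses. Of these 7 markers 0 passed in limma in either fit, and 0 had an unadjusted p under 0.05.

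The summed deposited intensity of the 7 epithelial markers was 9731 to 10996 in null lenses, and in heterozygous lenses it was 14062, 1113 and 7679 on arrays 1, 2 and 3. Over 11 lens fibre markers tested of 14 listed, the mean on heterozygous array 2 was 0.13 above the heterozygous mean, and saturation of the bright probes was not tested. Their median gap on that array was 0.03 on the normalized scale, but it was 1.53 for Hsf4 and 1.00 for Dnase2b. All 11 were lower in null lenses with all 6 arrays, where 48.2% of all probes tested were. The median difference was −0.22, and 0 passed in limma. Without heterozygous array 2 the median was −0.09, and Bfsp2, Hsf4 and Dnase2b were higher in null lenses, by 0.04, 0.16 and 0.03. The 7 photoreceptor markers tested of 8 and the 5 pigment and ciliary epithelium markers tested of 8 lay 0.76 and 0.85 above the heterozygous mean on heterozygous array 2. On heterozygous array 1 they lay at −1.07 and −0.77 relative to it. As deposited, photoreceptor sums were 636, 1005 and 1166 on heterozygous arrays 1, 2 and 3 and 1553 to 2000 in null lenses. Pigment and ciliary epithelium sums were 563, 884 and 723 on those heterozygous arrays and 721 to 775 in null lenses. Leucocyte markers, 8 tested of 12, had summed intensities of 1013 to 7419 in null lenses against 676 to 751 in heterozygous lenses. Of the 8, 7 were higher and 1 lower in null lenses with all 6 arrays. Lyz2 and C1qb were detected on 0 of 3 heterozygous arrays. Aif1 and Csf1r were detected on 3 of 3, with differences of −0.13 and 0.22. Of the 6 fibroblast markers 0 were tested. The part of these other cells in the values of the set was not tested.

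**Figure D3:**
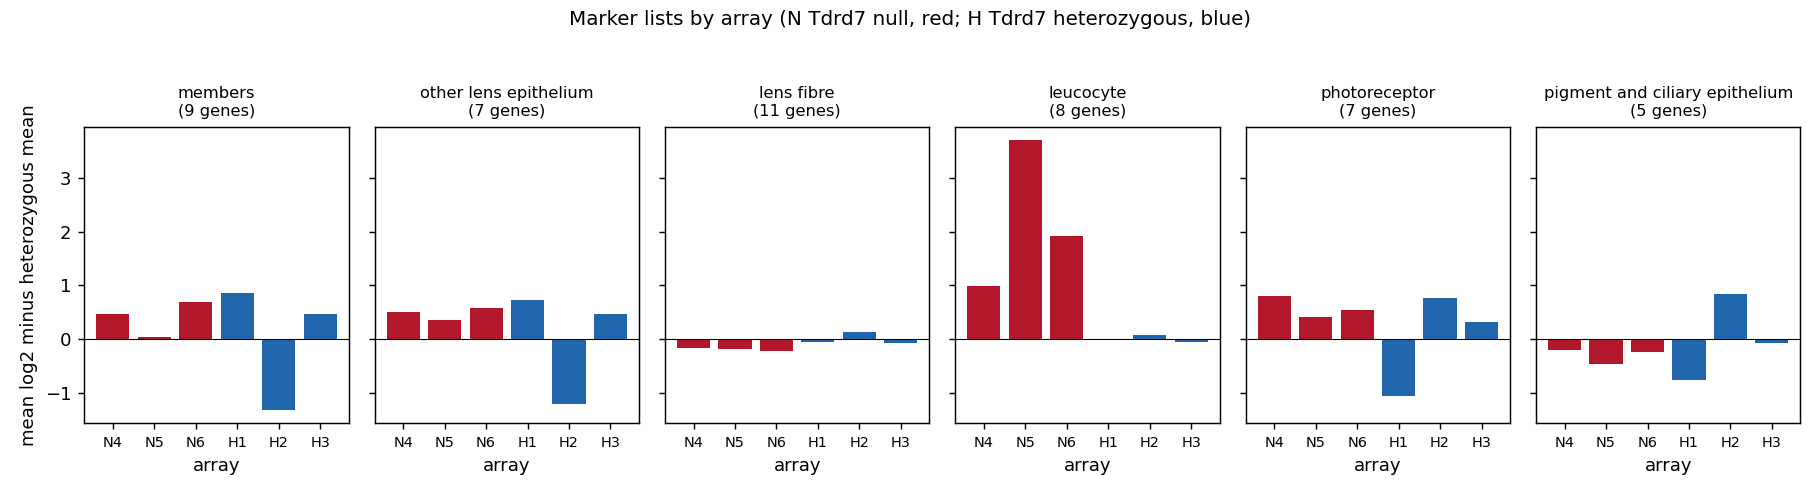
Mean log2 level of each marker list relative to its heterozygous mean (vertical axis) on null arrays 4 to 6 (N4 to N6, red) and heterozygous arrays 1 to 3 (H1 to H3, blue), over the tested genes of the list. The 9 members and the 7 other lens epithelium markers are lowest on heterozygous array 2, at −1.32 and −1.21. The mean of the fibre markers stays between −0.23 and 0.13, and that of the leucocyte markers is highest on null array 5, at 3.71.

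The partners of these proteins were grouped in 8 pathway lists, with 61 of 108 listed genes tested. In each list, 0 genes passed in either direction in limma, with all 6 arrays or without heterozygous array 2. The values below are those of the 2 genes with the smallest p in a list with all 6 arrays. Some partners not picked in this way were also low on heterozygous array 2. The gap there was −4.06 for Igfbp5, −2.59 for Heph, which was not above background there, and −2.45 for Sdc4. Others were not low there on the normalized scale, such as Trf with a gap of 1.31, and the list medians ran from −0.62 to 0.28. Without that array Igfbp5 differed by −2.04 ± 0.51 (limma adjusted p = 0.221).

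Wnt release and secreted Wnt inhibitors were mostly not above background. Of 16 genes on the array only 2 were tested, and 10 were detected on 0 arrays. The Wnt acyltransferase Porcn differed by 0.12 ± 0.24 and the secreted antagonist Sostdc1 by −0.21 ± 0.43 (limma adjusted p = 0.930 for both). Of the Wnt ligands, receptors and target genes, 15 of 26 on the array were tested, with a median difference of 0.01 and 1 gene at an unadjusted p under 0.05, where 8.70% of all probes were. That gene was Ccnd1, the cell cycle regulator cyclin D1, at 10.33, 10.70 and 10.90 on null arrays 4, 5 and 6 and at 10.37, 9.37 and 10.06 on heterozygous arrays 1, 2 and 3, a difference of 0.71 ± 0.29 (adjusted p = 0.526). The Ccnd1 difference was 0.43 ± 0.24 without heterozygous array 2 (limma adjusted p = 0.623). The transcription factor gene Tcf7l2 differed by −0.38 ± 0.23 with all 6 arrays (adjusted p = 0.695).

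For the growth factor side of the set, the PDGF ligand gene Pdgfa differed by 0.36 ± 0.26 and the second receptor gene Pdgfrb by 0.28 ± 0.22 (limma adjusted p = 0.764 and 0.789). On heterozygous array 2 Pdgfa was at its lowest of the 6 arrays, with a gap of −0.66 against −4.31 for Pdgfra. Pdgfrb was not low there on the normalized scale, with a gap of 0.40, and its deposited values were not examined. Among 7 tested genes of IGF binding proteins, ligands and receptors the median was 0.22. Igf2r, the receptor that clears IGF2, differed by 0.50 ± 0.21 (adjusted p = 0.552) and Igf1, the ligand, detected on 2 of 3 heterozygous arrays, by 0.67 ± 0.31 (adjusted p = 0.593). Among 13 tested genes of heparan sulfate synthesis, carriers and editing the median was 0.08. The cell surface carrier Sdc3 was at 7.80, 8.97 and 7.95 on null arrays 4, 5 and 6 and at 7.11, 7.38 and 7.04 on heterozygous arrays 1, 2 and 3. These groups did not overlap, as for 15.3% of all probes tested, and the Sdc3 difference of 1.07 ± 0.31 did not pass (adjusted p = 0.323). The sulfotransferase gene Ndst2 differed by 0.38 ± 0.21 (adjusted p = 0.654).

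Among 9 tested adherens junction genes the median was −0.06, with Tjp1, the scaffold ZO-1, at −0.57 ± 0.31 and the adhesion protein Nectin3 at 0.50 ± 0.33 (limma adjusted p = 0.663 and 0.733). The Tjp1 and Nectin3 differences were −0.80 ± 0.30 and 0.19 ± 0.28 without heterozygous array 2 (limma adjusted p = 0.45 and 0.86). Among 9 tested genes of iron handling the median was 0.13. Slc40a1 encodes ferroportin, the iron exporter with which ceruloplasmin works, and it was at 6.97, 6.72 and 7.10 on null arrays 4, 5 and 6 and at 8.09, 7.37 and 8.08 on heterozygous arrays 1, 2 and 3. All 3 null values lay below all 3 heterozygous values, as for 7.86% of all probes tested, and the difference of −0.91 ± 0.26 did not pass (adjusted p = 0.286), nor did that of −1.15 ± 0.21 without heterozygous array 2 (adjusted p = 0.106). The iron importer Slc11a2 differed by −0.35 ± 0.20 (adjusted p = 0.670).

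Of 4 tested podoplanin partners, 2 had an unadjusted p under 0.05, where 8.70% of all probes tested did. Msn encodes moesin, which ties podoplanin to actin, and was at 5.93, 6.20 and 6.13 on null arrays 4, 5 and 6 and at 5.11, 5.39 and 4.90 on heterozygous arrays 1, 2 and 3. The groups did not overlap, as for 15.3% of all probes tested, and the Msn difference was 0.95 ± 0.22, short of the threshold (limma adjusted p = 0.166, and 0.115 without heterozygous array 2 at 1.08 ± 0.21). Cd9, a membrane tetraspanin, differed by 1.00 ± 0.33 (adjusted p = 0.401). Both genes are also expressed by leucocytes, whose mean marker level was higher on the null arrays, and the part of these cells was not tested.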

How the data were processed

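Biotinylated cRNA from lens RNA was made with the Illumina TotalPrep kit, per the labels' protocols. The scanner software is not given in the sources used here. Per the file headers, the deposited table has a linear intensity and a detection p-value for each probe on each array. Its array medians, 60.5 to 71.3, differ, and it was treated as raw signal. Its columns give the group but no replicate number. The authors' series matrix holds a rescaled intensity per named sample, by a method not stated, and served as an alternative.

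Intensities were background-corrected and quantile-normalized with neqc of limma 3.58.1 in R 4.3.3 (offset 16) and log2-transformed. Probes were kept where the detection p was below 0.05 on 3 or more arrays, and these 14902 were fitted with lmFit and eBayes, null minus heterozygous, two-sided, Benjamini-Hochberg adjusted over these probes, at a threshold of 0.05. All arrays were normalized together before any was left out. The fits were also run on simulated data with independent normal noise, equal in spread on all arrays. Such data hold no outlying array, so they do not show how the fits behave with one. Intervals are 95%, and the number of arrays limits precision. Of all probes, 34885 carry 1 gene in the platform annotation, 18 several and 10378 none, and names were updated to RefSeq's table (GRCm38.p6). Of 175 list genes 167 had a probe. Promoters are RefSeq's. Positions of genes and promoters are those of GRCm38.p6.

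Every probe of the 10 genes is accounted for. Pathway genes named are those past the threshold or the 2 with the smallest p of each list, and the 5 genes most like the set are those with the highest correlation to its mean. The members and lists were chosen with earlier results of these data known. Same-numbered samples of the series matrix deviated together from their group means, with correlations of 0.11, 0.37 and 0.58 for replicates 1, 2 and 3. Unlike numbers gave −0.45 to 0.16, the 0.16 for heterozygous 1 with null 3 being above that of pair 1. Deviations from a group mean cancel within the group, so these correlations are tied to each other. They cannot settle whether the samples were paired. The replicate number was used as a block in an alternative fit, although the labels state no shared litter or day. The alternatives were the normalization, background correction, offset, filter, array weights, series matrix, block and left-out arrays.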

Additional observations from a re-analysis of the deposited data

How the results depend on the processing

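Over 16 alternatives, of the 18 member probes only Sfrp1 probe 2 passed anywhere, and 248 of 284 member values kept both direction and side of the threshold. A change of filter leaves each difference as it is, so only the side of the threshold could move there. With array weights 1 member probe passed, and leaving out single arrays gave 0 to 1 with all 6 arrays and 0 to 1 without heterozygous array 2 (the 1 is Sfrp1 probe 2 without null array 6). The count over all probes, 26 (limma), was 3 with median scaling, 9 with no background correction, 14 with an offset of 50, 261 with array weights, 9 on series matrix values without the block, 112 without heterozygous array 2 and null array 5, and 2 (without null array 6) to 29 (without null array 4) when 1 array was left out, with 10 without heterozygous array 1, 7 without heterozygous array 3 and 13 without null array 5. With the replicate block it was 35. Without heterozygous array 2 the count of 18 was 1 with no background correction, 1 with an offset of 50, 135 with array weights and 1 to 112 when a further array was left out (1 without heterozygous array 1 or 3, where a lone heterozygous array is assumed to vary like the null ones, 36, 112 and 6 without null array 4, 5 or 6). With no filter on dim probes it was 0 in both cases, with 2759 and 3009 at an unadjusted p under 0.05 in limma. The block changed no call of a member. The raw columns have no replicate number. Each series matrix sample had a rank correlation of 1 with a raw column, but this was not used to assign replicate numbers. Series matrix values and the block were therefore not run without heterozygous array 2. The median member difference ran from −0.0063 (array weights) to 0.43 (median scaling) over the settings with all 6 arrays, and from −0.19 (without heterozygous array 2) to 0.66 (without heterozygous array 1) when 1 array was left out, so its sign was not settled.

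Of the member differences, 34 values reversed, none of them past the threshold. The difference of Cdh1 turned to −0.011 with no background correction, −0.29 with array weights, −0.013 on series matrix values both with and without the replicate block and −0.23 without heterozygous array 2 and null array 5, and ran from −0.90 to 0.73 when 1 array was left out. Without those 2 arrays Pdpn gave −0.087, Sulf1 probe 1 −0.51, Igfbp7 −0.053, Cp probe 1 −0.077, Cp probe 2 −0.12 and Wls probe 4 −0.001. With array weights Sulf1 probe 1 gave −0.35, Igfbp7 −0.0063 and Cp probe 2 −0.14, and Sulf1 probe 1 gave −0.0013 on series matrix values with and without the block. With median scaling Sulf1 probe 2 gave 0.081 and Dkk3 probe 3 gave 0.034. When 1 array was left out, Pdpn ran from −0.42 to 1.70, Pdgfra from −0.018 to 2.39, Sulf1 probe 1 from −0.81 to 0.88, Sulf1 probe 2 from −0.77 to 0.23, Igfbp7 from −0.19 to 0.62, Dkk3 probe 1 from −0.30 to 0.15, Dkk3 probe 2 from −0.34 to 0.12 and Cp probe 2 from −0.43 to 0.81. The lowest of each came without heterozygous array 2. Leaving out an array also leaves fewer samples, and the cause of the other moves was not tested.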
